A study of Mus musculus with 12 samples.

Results

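Macrophage marker genes were followed in whole hearts of mice at postnatal day 8. The set consists of 10 genes chosen by symbol: Csf1r, Adgre1, Cd68, Lyve1, Mrc1, Cx3cr1, Cd163, Timd4, C1qa and C1qb. Of these, 9 were measured, out of 17710 named genes on the array. A named probe was found for 8 under their listed symbol and for Adgre1 under its older symbol Emr1, and no probe was annotated to Lyve1 in the table used. Each of the 9 genes had 1 probe.

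The data came from 12 one-colour arrays and 4 biological samples, each hybridised to 3 technical arrays. Both groups shared the C57bl/6 X 129 hybrid background. The 2 samples labelled Salv CKO carry a conditional mutation of Salvador (Sav1), a scaffold of the Hippo kinases, and the 2 samples labelled Control are given as wild-type. No source used here gives the Cre driver, the deleted part of the gene, or whether a sample was 1 heart or a pool. One label calls the tissue embryonic, while the stage label and the extraction text give postnatal day 8.

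Resident macrophages settle in the heart before and shortly after birth and persist there by local renewal, under signals that reach them through the receptor Csf1r. They clear dying cells and debris, tag material with complement C1q and take part in the growth and repair of heart muscle in the newborn. No single gene marks them all. Adgre1 (F4/80) and Cd68 are general markers, Cx3cr1 is the fractalkine receptor, and Mrc1, Cd163 and Timd4 are scavenger or uptake receptors typical of long-lived resident cells. In RNA from whole hearts, fewer macrophages and less RNA of a gene per macrophage cannot be told apart.

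Levels below are log2(intensity + 1) after quantile normalization of the 12 arrays, averaged over the 3 arrays of a sample. Differences are Salv CKO minus Control on that scale, with the standard error of limma, and understate the change of dim probes. Levels of different probes are not on a common scale, so each gene is compared only with itself between samples. The targeted gene did not follow the labels. The Sav1 level was 8.06 in Salv CKO 1 and 8.52 in Salv CKO 2, against 8.75 and 8.08 in Control 1 and 2, and the groups are therefore named by label only. Heart muscle genes such as Actc1 and Tnnt2 were among the bright probes (deposited intensities of at least 34443 and 32190). Of the macrophage genes, Timd4 was dim, below the array median on 12 of 12 arrays. Mrc1 lay above the array median on 11 arrays and the other 7 genes on all 12.

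None of the 9 genes was called different between the groups, and the largest departures belonged to single samples or arrays: Control 1 had 0.466 times the Cd68 and 2.18 times the Cd163 of the other 3 samples. Their adjusted p ran from 0.9986 to 0.9995 in limma, adjusted over all 26423 probes, and 0 of 9 had an unadjusted p under 0.05. Over all probes, 0% were called after adjustment and 3.96% had an unadjusted p under 0.05, of which 1.95% were higher in Salv CKO and 2.01% lower. Of the 9 genes, 4 had a positive and 5 a negative difference, with a median of -0.082, against -0.010 over all probes. The groups did not overlap for 2 of 9 genes (22.2%), 1 higher (Cx3cr1) and 1 lower (Cd163). Neither held in every scaling: Cx3cr1 overlapped with median centring and Cd163 without normalization. Over all probes the groups did not overlap for 30.6%, 14.8% higher and 15.8% lower, so the count among the macrophage genes was not above the background. With 2 samples a group, the spread of a single probe rests on only 2 pairs of samples (2 residual degrees of freedom). The limma fit combines it with a prior spread estimated over all probes (2.60 degrees of freedom), and a difference has to be large against both. Nothing in the labels says that the samples came from separate animals. A p-value here thus speaks only of spread among the 4 samples, in the probe itself and over all probes, which may be technical.

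**Figure D1:**
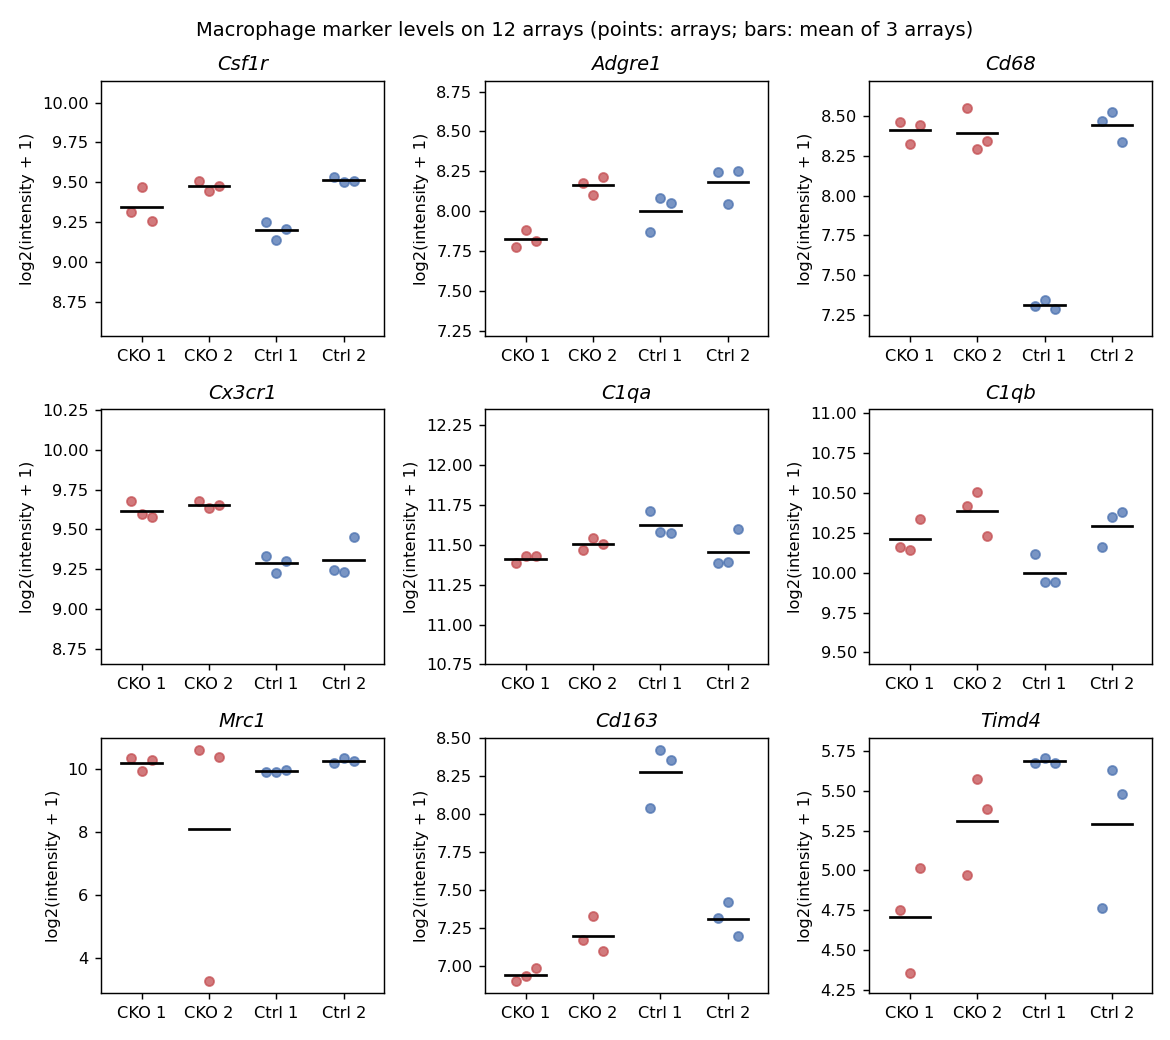
Levels of the 9 measured macrophage genes, as log2(intensity + 1), on each of the 12 arrays (points) with the mean of the 3 arrays of a sample (bars). Red marks samples labelled Salv CKO (CKO), blue those labelled Control (Ctrl). Cd68 is low and Cd163 high on the 3 arrays of Control 1, Cx3cr1 is higher in both Salv CKO samples on this scale but not with median centring, and 1 array of Salv CKO 2 gives Mrc1 a level of 3.25. The vertical axes differ between genes and do not start at 0.

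Csf1r, the receptor for macrophage colony-stimulating factor, on which macrophage survival rests, was close to level between the groups. It stood at 9.35 and 9.48 in Salv CKO 1 and 2, and at 9.20 and 9.51 in Control 1 and 2. The Salv CKO samples lay between the 2 controls, and the difference was 0.055 ± 0.23 (SE, n = 2 samples a group, limma adjusted p = 0.9995). Leaving out Control 1 gave -0.10 and leaving out Control 2 gave 0.21, so no sign can be read from it. In deposited intensities, the mean of 3 arrays was 555 and 841 in Salv CKO 1 and 2 and 616 and 662 in the controls.

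The general marker Adgre1, an adhesion receptor of the macrophage surface, followed the labels no better. Its levels were 7.82 and 8.17 in Salv CKO 1 and 2, against 8.00 and 8.18 in Control 1 and 2. The lowest sample was Salv CKO 1 and the groups overlapped. The difference was -0.095 ± 0.24 (SE), and 0.075 without Salv CKO 1.

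Cd68, a glycoprotein of the lysosome membrane in phagocytes, was set apart by a single control. Levels were 8.41 and 8.39 in Salv CKO 1 and 2, 8.44 in Control 2, and 7.31 in Control 1. The 3 arrays of Control 1 agreed to an SD of 0.027, and their deposited intensities of 169, 144 and 142 lay below those of the other 9 arrays, which began at 289. The difference between the groups, 0.52 ± 0.42 (SE, limma adjusted p = 0.9986), was -0.043 without Control 1 and 1.09 without Control 2.

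Cx3cr1, which binds the chemokine fractalkine, had arrays that were separated by group on the quantile scale but in neither other scaling. On the quantile scale its levels were 9.62 and 9.66 in Salv CKO 1 and 2, against 9.29 and 9.31 in Control 1 and 2. The samples within a group lay 0.038 and 0.024 apart, and all 6 Salv CKO arrays, from 9.58 to 9.68, lay above all 6 control arrays, from 9.23 to 9.46. The difference was 0.34 ± 0.20 (SE), or 1.26-fold, with an unadjusted limma p of 0.164 and an adjusted p of 0.9986. The pooled SD of Cx3cr1 between samples of a group was only 0.022, so this SE came mostly from the prior over all probes. Arrays of the groups were apart in this way for 1 of the 9 genes and for 5.05% of all probes (2.33% higher in Salv CKO). The difference exceeded the distance between the samples within each group for 1 of 9, and for 18.5% of all probes (8.87% higher). With arrays centred on their medians, which leaves the median of all probes at -0.080, Cx3cr1 stood at 9.34 and 9.73 in Salv CKO 1 and 2 and at 9.47 and 9.26 in Control 1 and 2, so that the groups overlapped, and the difference was 0.17. Without normalization the levels were 9.369 and 9.89 against 9.363 and 9.17, so that the samples were barely apart and the arrays overlapped.

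Among the scavenger receptors, Mrc1, the mannose receptor CD206, turned on 1 array. Its level was 9.94 in Control 1, 10.27 in Control 2 and 10.19 in Salv CKO 1. In Salv CKO 2 the 3 arrays gave 10.62, 3.25 and 10.40, from deposited intensities of 1916, 8 and 1699, and the mean was 8.09. The difference over means of arrays was -0.96 ± 0.73 (SE, limma adjusted p = 0.9986). With the median of the 3 arrays, the difference was 0.24 and the groups no longer overlapped. Leaving out the array gave 0.25. The other 8 genes had SDs of at most 0.31 over the same 3 arrays.

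Cd163, the scavenger receptor for haemoglobin bound to haptoglobin, was the mirror image of Cd68 in Control 1. It stood at 6.94 and 7.20 in Salv CKO 1 and 2 and at 7.31 in Control 2, but at 8.27 in Control 1. Deposited intensities in Control 1 were 289, 324 and 319, and the remaining 9 arrays lay between 112 and 172. The groups did not overlap, yet Control 2 was only 0.11 above Salv CKO 2, and the arrays of these samples overlapped. The difference of -0.72 ± 0.39 (SE, limma unadjusted p = 0.126, adjusted p = 0.9986) was -0.24 without Control 1 and -1.21 without Control 2.

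Timd4 encodes a receptor for phosphatidylserine on dying cells and marks long-lived resident macrophages. Levels were 4.71 and 5.31 in Salv CKO 1 and 2, against 5.68 and 5.29 in Control 1 and 2. The lowest sample was Salv CKO 1 and the highest Control 1, and the middle samples lay 0.018 apart. The difference was -0.48 ± 0.31 (SE), -0.34 at a pseudocount of 16 and -0.18 without Salv CKO 1. Deposited intensities ran from 23 to 53, and the spread between the technical arrays of a sample reached an SD of 0.46, so Timd4 was the least precise of the genes apart from Mrc1.

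C1qa and C1qb encode chains of C1q, the recognition part of complement, which in many tissues is made mainly by macrophages. C1qa stood at 11.41 and 11.50 in Salv CKO 1 and 2, against 11.62 and 11.46 in Control 1 and 2. C1qb stood at 10.21 and 10.39 in Salv CKO 1 and 2, against 10.0004 and 10.30 in Control 1 and 2. Both pairs of groups overlapped, with differences of -0.082 ± 0.21 for C1qa and 0.15 ± 0.23 for C1qb (SE). Without Control 1 these were 0.00065 and 0.0037. Control 1 had the highest C1qa in all 3 scalings run. It had the lowest C1qb on the quantile scale only, and Salv CKO 1 had the lowest with median centring and without normalization.

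**Figure D2:**
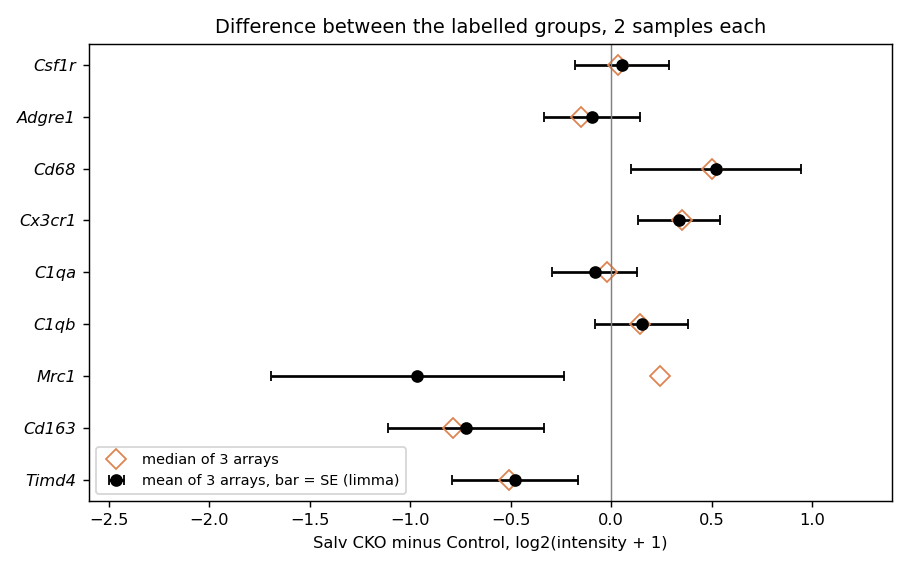
Difference between the groups for each gene, Salv CKO minus Control on the log2(intensity + 1) scale, with 2 samples a group. Filled points use the mean of the 3 technical arrays and carry the limma standard error, and open diamonds use their median. The 2 values nearly coincide except for Mrc1, at -0.96 and 0.24.

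Neighbours in the order of the 4 samples could be set only against technical arrays, which carry no spread between hearts. Each gene gives 3 neighbouring pairs, 27 in all, and the technical arrays overlapped in 18 of them. The 9 steps without overlap included the steps that part Control 1 from its neighbour for Cd68 and Cd163, with gaps of 1.08 and 0.97. The other 7 gaps ran from 0.12 for C1qa to 0.38 for Timd4. Between the samples of a group, the pooled SD was 0.57 for Cd68 and 0.50 for Cd163, against 0.091 and 0.13 between technical arrays. For the other genes it was 0.17 for Csf1r, 0.19 for Adgre1, 0.022 for Cx3cr1, 0.36 for Timd4, 0.094 for C1qa and 0.17 for C1qb, and for Mrc1 1.06 with the low array included. Over the brighter 50% of probes the median of this SD was 0.20.

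On the quantile scale, Control 1 held the highest or lowest level for 7 of the 9 genes (77.8%), against 64.3% of all probes, so its position was common to much of the array. It had the lowest Cd68 and the highest Cd163, Timd4 and C1qa in all 3 scalings. It had the lowest Csf1r, Cx3cr1 and C1qb on the quantile scale only. Against the mean of the other 3 samples, Cd68 differed by -1.10 on the log2 scale, or 0.466-fold, and Cd163 by 1.13, or 2.18-fold. Among the 13211 probes brighter than the median, 3.997% lay as far from the other samples in Control 1 as Cd68 and 3.75% as far as Cd163. These shares are descriptions of genes picked after their values were seen. Without normalization the 2 shifts were -1.15 and 1.12, and with median centring -1.01 and 1.25. The shifts of Csf1r (-0.25), Cx3cr1 (-0.24) and C1qb (-0.30) in Control 1 were 0.0030, 0.022 and -0.016 with median centring, and that of C1qa went from 0.17 to 0.49. The median of all probes in Control 1 was shifted by 0.050 and 0.16 in these settings.

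Ratios of deposited intensities within an array do not depend on a single scaling factor per array. They do depend on the background subtracted and on array effects that vary with intensity. With that limit, the ratio of 2 probes can be compared between arrays, although its size has no meaning of its own. The ratio of deposited intensities of Cd163 to Cd68 was 1.71, 2.25 and 2.25 on the arrays of Control 1. On the remaining 9 arrays it lay between 0.370 and 0.494. The ranges did not overlap, and the mean ratio was 2.07 in Control 1 against 0.391, 0.429 and 0.461 in Salv CKO 1, Salv CKO 2 and Control 2.

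The C1q chains parted in the same sample. C1qc, the gene of the third chain, comes from the complement list and was named here after its values were seen. It lies between C1qb and C1qa on mouse chromosome 4, with 0 other protein-coding genes among them in the RefSeq table of GRCm38.p6. Its level was 9.51 in Control 1, against 10.24, 10.37 and 10.37 in Salv CKO 1, Salv CKO 2 and Control 2, and the 3 arrays of Control 1 had an SD of 0.013. The shift of C1qc in Control 1 was -0.81, and -0.54 with median centring. The ratio of C1qa to C1qc was 4.72, 4.30 and 4.30 on the arrays of Control 1 and between 2.02 and 2.35 on the other 9. The ratio of C1qa to C1qb was 3.06, 3.22 and 3.18 in Control 1 and between 2.03 and 2.39 on the other 9 arrays. The ratio of C1qb to C1qc was 1.34 to 1.54 in Control 1 and 0.873 to 1.07 elsewhere. In Control 1 all 3 ratios thus lay outside the range of the other arrays, but they share 3 probes and are not independent of each other. Of the brighter probes, 8.73% lay as far from the other samples in Control 1 as C1qc.

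Control 1 was also the sample in which probes of 1 gene parted most. For 937 genes with 2 probes brighter than the median, a measure chosen after the data were seen, the shift of a sample against the other 3 was compared between the 2 probes. The probes disagreed by more than 0.5 on the log2 scale for 40.1% of these genes in Control 1. The share was 12.5% for Control 2, and 23.6% and 7.47% for the samples Salv CKO 1 and 2. The median disagreement was 0.40 in Control 1, 0.18 in Control 2, and 0.27 and 0.16 in Salv CKO 1 and 2. In the same order, the median absolute deviation over all brighter probes was 0.26, 0.16, 0.20 and 0.13. Control 1 thus also deviated most as a whole, and a fixed limit is passed more often in such a sample. The myoglobin gene Mb gave shifts of -0.082 and -1.22 in Control 1 for its brighter and its dimmer probe. For Cd74, the invariant chain of MHC class II, all 3 probes were low there, by -2.51, -1.26 and -1.74. Each macrophage gene had 1 probe, so a second probe could not be set beside the values of Cd68, Cd163 or the C1q genes, and the part of such disagreement in them was not tested.

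**Figure D3:**
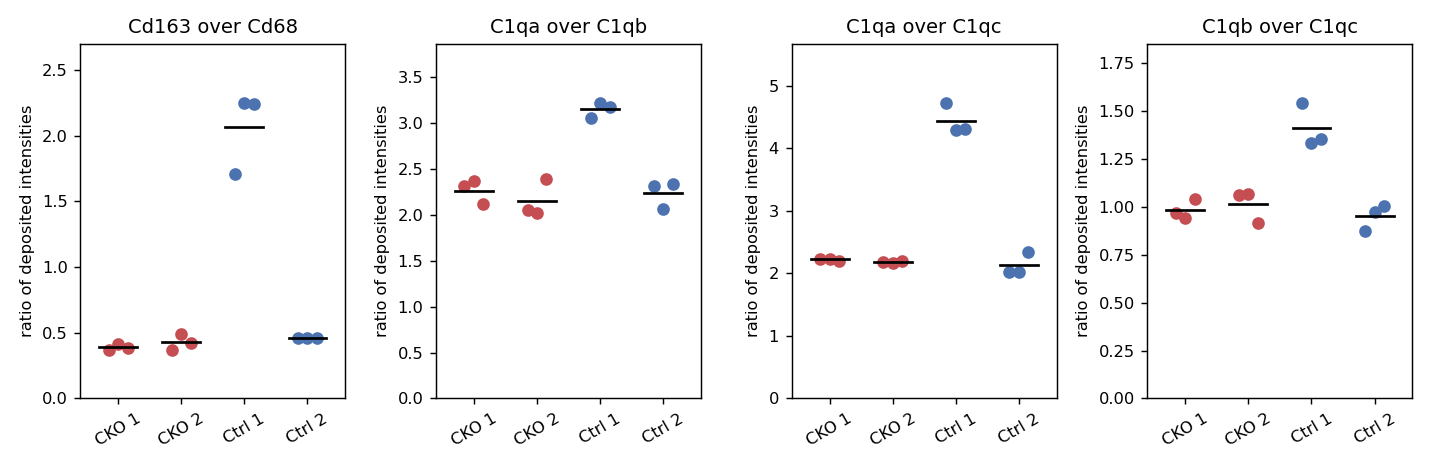
Ratios of deposited intensities within each array, for Cd163 over Cd68 and for pairs of the C1q genes (linear axes from 0; points are the 3 arrays of a sample, bars their mean). Red marks Salv CKO and blue Control. The arrays of Control 1 lie above the other 9 arrays in all 4 panels.

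The 9 genes did not vary as 1 unit across the arrays. Pearson's r over the 12 arrays, which are 3 arrays of each of 4 samples and so not 12 independent points, was positive for 15 of the 36 pairs. The lowest was -0.92 for Cd68 and Cd163 and the highest 0.78 for Csf1r and Cd68. C1qb followed Cd68 (r = 0.73), C1qa followed Cd163 (r = 0.66), and Timd4 followed Cd163 (r = 0.70) and C1qa (r = 0.69). For every gene of these pairs, Control 1 was the highest or lowest sample on the quantile scale. The r values without Control 1 were not computed. Against the mean of the other members, 8 of 9 genes had an r below 0, and 5 without the array on which Mrc1 was low. Those 5 were Cd163 at -0.57, Cd68 at -0.41, Cx3cr1 at -0.29, Timd4 at -0.061 and C1qa at -0.00090. Their values with all 12 arrays were -0.23, -0.26, -0.37, -0.23 and -0.12. The other members below 0 over all 12 arrays were Mrc1 (-0.39), C1qb (-0.34) and Csf1r (-0.041).

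The mean profile of the members accordingly described few of them. Of 10567 other named genes brighter than the median, those most like it over the 12 arrays were Mtfp1 (r = 0.91), Flot1 (0.89), Asb8 (0.76), Clec4f (0.75), Tarbp2 (0.71), Zkscan1 (0.68), Adam22 (0.68), Tmem147 (0.67), Kctd6 (0.65) and Tbck (0.64). Without the array on which Mrc1 was low, the 10 nearest genes were different, with 0 shared, and were led by Slc35b4 (0.94), Ppp1r13b (0.91) and Elovl5 (0.91). The likeness to Mtfp1 and Flot1 thus rested on 1 array.

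The genes around these markers were taken from 15 lists of pathways and cell types, with 184 measured genes in all. Adjusted over all probes, 0 were called in limma (no adjusted p was below 0.9986). An unadjusted p under 0.05 was reached by 4 (2.17%), 0 higher and 4 lower in Salv CKO, against 3.96% of all probes. These were Itga9, Cfd, Mmp8 and Ccr7. Overlap between groups in these lists was counted on the quantile scale only, and may differ in another scaling.

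Among ligands of Csf1r and regulators of the macrophage lineage, 12 of 15 genes were measured, 2 with a positive difference, and the median was -0.20 (-0.24 to -0.065 with 1 sample left out). Csf1, a ligand of Csf1r, was level in all 4 samples, at 8.59, 8.55, 8.61 and 8.57 in Salv CKO 1 and 2 and Control 1 and 2. Spi1, which encodes the lineage factor PU.1, stood at 8.17 and 8.26 in Salv CKO against 8.89 and 8.20 in Control 1 and 2, with a difference of -0.33 ± 0.31 (SE). Control 1 was again the sample apart. Runx1 differed by -0.26 (-0.58 by its other probe), Cebpb by -0.32 and Cebpa by -0.23.

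Of further resident macrophage genes, 26 of 28 were measured, 9 with a positive difference, with a median of -0.093. Axl, a receptor for the clearance of dying cells, differed by -0.42 ± 0.24 (SE), the lectin gene Cd209f by -0.48 ± 0.28 and the growth factor gene Igf1 by 0.33 ± 0.23. The groups did not overlap for 6 of the 26 genes (23.1%), 1 higher and 5 lower, against 30.6% of all probes. These were Igf1, and Axl, Cd209f, Slco2b1, Stab1 and Clec4f. The other probe of Axl did overlap and differed by -0.13. Slco2b1 was dim, at intensities from 3 to 12 (difference -0.36).

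Complement genes numbered 15 of 22 measured, 5 with a positive difference (median -0.14). Cfd, which is also an adipocyte gene, differed by -1.80 ± 0.48 (SE, limma unadjusted p = 0.015, adjusted p = 0.9986). C6 differed by 0.42, Cd55 by -0.33 and the dim C7 by -0.35. Phagocyte and pan-leukocyte genes numbered 16 of 21, 6 with a positive difference (median -0.018, and -0.095 to 0.12 with 1 sample left out). The actin-bundling gene Lcp1 differed by 0.50 ± 0.25, the Fc receptor chain gene Fcer1g by 0.25, Cd53 by 0.22 and Cd52 by 0.20, and these 4 were higher in both Salv CKO samples, while Cd86 (-0.16) and Laptm5 (-0.054) were lower in both. That made 6 of 16 genes without overlap (37.5%), 4 higher and 2 lower, against 14.8% and 15.8% of all probes. A second, dim probe of Cd53 differed by -0.62. Ptprc, the CD45 gene of all leukocytes, was level, at 7.42 and 7.63 against 7.39 and 7.66. Lysosome genes numbered 14 of 16, 5 with a positive difference (median -0.065). Lipa, the acid lipase gene, had a level of 8.84 in Control 1 and of 7.43 to 7.60 elsewhere (difference -0.60 ± 0.51). Lamp2 differed by -0.31, and Gpnmb and Atp6v0d2 by -0.41 and 0.39.

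Other blood cells gave no call. Monocyte genes had 4 of 10 positive differences (median -0.035), with Ccr2, the receptor of monocyte recruitment, at 6.97 and 6.28 in Salv CKO against 6.27 and 6.46 (difference 0.26, and -0.59 by its other probe). Fn1 differed by 0.46, Itgal by 0.27 and Ace by -0.31. Neutrophil genes had 4 of 14 positive (median -0.24), with Mmp8 (-0.70 ± 0.23, intensities up to 21) and Cxcr2 (-0.50, up to 7) close to background, Ngp at 0.32 and Mmp9 at -0.36. Dendritic cell and MHC class II genes had 3 of 11 positive (median -0.094). Ccr7 differed by -0.87, H2-Aa by -0.64, Ciita by -0.25 and Cd74 by 1.01, with a level of 5.46 in Control 1 and of 7.64 to 8.21 elsewhere. Lymphocyte genes had 6 of 11 positive (median 0.00036), and Ms4a1, Cd3d, Cd8a and Ncr1, at -0.39, -0.95, 0.54 and 0.39, reached intensities of at most 39.

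**Figure D4:**
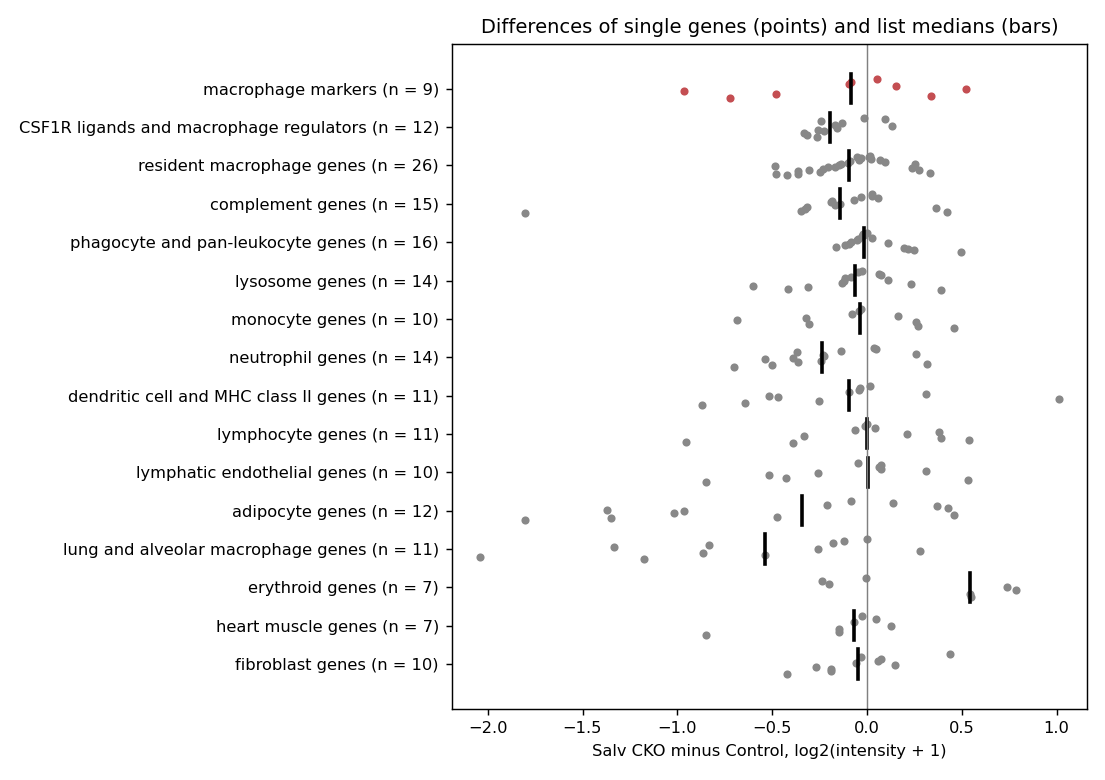
Differences of single genes (points) and the median of each list (black bars), Salv CKO minus Control on the log2(intensity + 1) scale, with the number of measured genes. Red points are the 9 macrophage markers, whose median is -0.082. The list medians lie between -0.54 (lung and alveolar macrophage genes) and 0.54 (erythroid genes). With 1 sample left out these medians ran from -1.56 to 0.34 and from -0.18 to 0.56, so neither kept its sign.

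Macrophages of other tissues, or other cells that carry these markers, could add to the RNA of a dissected heart, and markers of those tissues moved between samples. The summed normalized intensity of the lung and alveolar macrophage list (11 of 12 measured, 2 with a positive difference) was 4059 and 2200 in Salv CKO 1 and 2 and 1974 and 9999 in Control 1 and 2. The median difference of this list was -0.54 (-1.56 to 0.34 with 1 sample left out). Sftpb was at 0 on at least 1 array, and Scgb3a1, Sftpa1 and Foxj1 differed by -2.04, -0.54 and -0.86 (-0.040 and -0.022 by the other probes of Scgb3a1 and Sftpa1). Scgb3a2 stood at 10.61 and 3.29 in Salv CKO 1 and 2 and at 4.02 and 11.55 in Control 1 and 2. In the same order, Scgb1a1 stood at 8.14, 4.07, 3.68 and 11.19, and Sftpd at 6.39, 2.39, 2.60 and 6.54. Krt79 stood at 8.07, 4.94, 5.18 and 8.07. These genes were high in Salv CKO 1 and Control 2, across the labels, but not all of the list followed them. In the same order, Sftpc moved the same way but less, at 5.19, 4.59, 4.67 and 5.62. Scgb3a1, Sftpb and Sftpa1 were highest in Control 2, with Scgb3a1 at 6.37, 5.27, 4.76 and 10.96. Ager was lowest in Control 2, at 4.52, 3.59, 3.99 and 3.56. Foxj1 was low in Salv CKO 1 and Control 2, at 5.80, 8.53, 8.82 and 7.24. The sum of the adipocyte list (12 of 12, 4 positive) was 22277 and 17272 in Salv CKO and 28312 and 23961 in the controls, with Pparg at or below 0 on at least 1 array. The median difference of the list was -0.34 (-0.59 to -0.19 with 1 sample left out), and 7 of 12 genes (58.3%) had no overlap between groups, 2 higher and 5 lower, against 30.6% of all probes. Ucp1, the thermogenic gene of brown fat, stood at 11.95 and 9.75 in Salv CKO 1 and 2 and at 12.71 and 11.74 in Control 1 and 2, a difference of -1.37. Salv CKO 2 was the low sample. Cidec differed by -1.35, Plin1 by -1.02, Adipoq by -0.96, Cidea by -0.47 and Lipe by 0.46. For the erythroid list (7 of 12, 4 positive) the sum was 12971 and 18318 in Salv CKO and 16401 and 9688 in the controls. The median difference was 0.54 (-0.18 to 0.56 with 1 sample left out). Car1, Alas2, Slc4a1 and Epb42 differed by 0.55, 0.54, 0.79 and 0.74. Tfrc, Rhag and Klf1 went the other way, at -0.20, -0.24 and -0.0031. Alas2, Slc4a1 and Epb42 were lowest in Control 2. Car1 was dim, at intensities from 5 to 34, and its other probes gave 0.24 and 0.46. The sums of these lists are carried by their brightest probes. Control 1, where Cd68 and Cd163 stood apart, had the lowest lung sum, close to that of Salv CKO 2, and the highest adipocyte sum. In the lung list, Car4 was bright in every sample, at 10.43 in Control 1 and from 10.70 to 10.98 elsewhere. Scgb1a1 was lower in Control 1 than in Salv CKO 2, while Scgb3a2, Sftpd and Krt79 were lower in Salv CKO 2. The part of these tissues in the macrophage values was not tested.

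Lymphatic vessels share Lyve1 and Mrc1 with macrophages. Their genes had 5 of 10 positive differences (median 0.0080, and -0.17 to 0.0014 with 1 sample left out), and none was at 0. Prox1, the defining factor of lymphatic endothelium, was level at 8.98 and 9.09 in Salv CKO against 8.92 and 9.02, and Flt4 at 6.21 and 6.03 against 6.02 and 6.08. Itga9, an integrin of lymphatic valves and of other cells, stood at 10.87 and 10.88 in Salv CKO against 11.69 and 11.76, a difference of -0.85 ± 0.21 (SE, limma unadjusted p = 0.011, adjusted p = 0.9986). With all 12 arrays in the limma fit and the sample as a random block it was called (adjusted p = 0.00072), as 1 of the 184 list genes and 1 of 61 among all probes (0.231%). That fit draws part of its spread from technical arrays, which are not replicates, so the call is not evidence of a difference between groups. Stab2, Reln and Foxc2 differed by 0.53, -0.43 and -0.51. Heart muscle and fibroblast sums spanned 1.06-fold and 1.05-fold over the samples, with medians of -0.066 and -0.045. Both sums were taken after quantile normalization, which gives the brightest probes of every array the same set of values. Their narrow span was thus partly set in advance and is no measure of cell content. In these lists, Nppb differed by -0.85, Nppa by -0.15, Actc1 by -0.15 and Tnnt2 by 0.13, and Col1a1, which was dim, by -0.42, Col1a2 by -0.19, Ddr2 by -0.19 and Pdgfrb by -0.27.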

How the data were processed

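The deposited values are intensities of 26423 probes on 12 one-colour (Cy5) arrays, whole numbers from -10 to 65474. Since some lie below 0, a background was subtracted from the deposited intensities before the authors deposited them. The scanner and any further step: not given in the sources used here. Array medians ran from 58 to 88, so the arrays were quantile normalized, floored at the lowest positive value (0.0833; 1 in settings without it), and log2(value + 1) was taken. Each sample's 3 technical arrays were averaged to 1 replicate. Groups of 2 samples were compared with limma 3.58.1 (lmFit, eBayes, two-sided, R 4.3.3; degrees of freedom 2 residual, 2.60 prior). Benjamini-Hochberg adjustment ran over all probes, and 0.05 was the threshold. The number of arrays and samples limits the precision.

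Probes were named from the platform annotation, updated through RefSeq (GRCm38.p6), with 18213 symbols matched directly, 2126 through a unique synonym and 38 unmatched. A gene was given by its brightest probe. The macrophage genes and the other lists were chosen with earlier results of these data known. Named genes were all members, the 4 genes with the smallest p in each list and the 10 genes most like the members. Other genes were named after their values were seen, for the role they play or because single samples stood apart. Alternatives covered scaling, pseudocount, dim probes, technical arrays, the replicate block, the variance trend and each sample left out. Figures used matplotlib 3.10.9.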

Additional observations from a re-analysis of the deposited data

How the results depend on the processing

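The replicate block, with the sample number as a block, called 0 of the 9 macrophage genes and 0 of all probes, as did the fit without it. Same-numbered samples deviated in opposite directions (r = -0.25 across probes), and the crossed pairing, chosen after seeing the data, also called 0. No macrophage gene was called in any of 15 alternative settings (smallest limma adjusted p = 0.324). The count over all probes, 0, became 10 with median centring, 11 without normalization (where the median difference of all probes is 0.11) and 61 with all 12 arrays and the sample as a random block, where 1 gene of the other lists (Itga9) was called. The fit of all 12 arrays draws part of its spread from technical arrays, which are not replicates. The 2 macrophage genes without overlap between groups became 4 with the median of technical arrays (29.7% of all probes) and 4 to 7 with 1 sample left out, where 55.3% to 76.1% of all probes do not overlap because fewer samples have to separate. Signs turned for Csf1r (-0.095) and C1qb (-0.027) with median centring, for Adgre1 (0.018) without normalization, and for Mrc1 with the median of technical arrays (0.24) and without its low array (0.25, chosen after seeing the data). With 1 sample left out, Csf1r ran from -0.10 to 0.21, Adgre1 from -0.27 to 0.075, Cd68 from -0.043 to 1.09, Mrc1 from -2.02 to 0.085 and C1qa from -0.17 to 0.00065. Where a sample was left out, the lone sample of its group was assumed to vary like the others. Cx3cr1, Cd163 and Timd4 kept their sign in all settings run, although Cx3cr1 overlapped between groups with median centring and Cd163 without normalization. Timd4 had no value without the dimmest 50% of probes, and the mean over probes changed nothing because each gene had 1 probe. Causes of these changes were not tested beyond what each setting leaves out.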
